A study of Homo sapiens with 9 samples.

Results

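The D-type cyclins, the 2 kinases they activate and the inhibitors of those kinases were followed through MCF-10A cells with 3 genotypes of PIK3CA. The 10 genes were taken by symbol, namely CCND1, CCND2, CCND3, CDK4, CDK6, CDKN1A, CDKN1B, CDKN1C, CDKN2C and CDKN2D, out of 60609 genes counted. RNA was sequenced after depletion of ribosomal RNA, in 3 libraries per genotype. MCF-10A is a non-tumorigenic line of human breast epithelium, and PIK3CA encodes p110-alpha, a catalytic subunit of PI 3-kinase. The H1047R line carries a knocked-in change in the kinase domain, the E545K line a knocked-in change in the helical domain, and WT is the parental line. The question was how transcription differs between isogenic cells that carry either change.

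The H1047R and E545K lines were maintained without epidermal growth factor (EGF, 0 ng/ml), and WT cells with 20 ng/ml EGF, so growth-factor history moved with genotype and their parts in a difference between a knock-in line and WT cannot be told apart. All 3 lines shared 5% horse serum, insulin, hydrocortisone and cholera toxin, were grown to 80% confluence and were moved for the last 24 h to an assay medium in which serum was charcoal-stripped and lowered to 1% and EGF was 0.2 ng/ml. The labels do not say whether replicate libraries came from separate cultures or whether a knock-in line was 1 clone, so the p-values reflect only how far the libraries vary, and that variation may be technical.

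The D-type cyclins couple growth-factor signals to the cell cycle. Each binds CDK4 or CDK6, and the complexes phosphorylate the retinoblastoma protein, which frees E2F factors to transcribe genes of S phase. Inhibitors of the INK4 family bind CDK4 and CDK6 alone, while those of the CIP/KIP family bind cyclin-kinase complexes, block CDK2 and can also help cyclin D complexes to assemble. PI 3-kinase signalling through AKT is known to favour cyclin D1 stability and to restrain FOXO factors, which activate CDKN1B. RNA counts do not show protein level, phosphorylation or kinase activity.

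Levels are given as CPM, counts scaled to a common library total after TMM scaling (trimmed mean of M values, which aligns libraries on their bulk of genes). Total counts were 377093507 to 605972919 in H1047R libraries, 95533991 to 134245702 in E545K libraries and 95091894 to 136132315 in WT libraries. The H1047R libraries stand in a table of their own, so table and H1047R genotype cannot be told apart, and their replicate spread was wider, with a biological coefficient of variation of 0.212 in H1047R, 0.0289 in E545K and 0.0328 in WT. Protein-coding genes took 77.6% to 78.1% of counts in H1047R, 85.2% to 85.8% in E545K and 85.9% to 86.0% in WT. PIK3CA was present in every library, at 41.7 to 43.9 CPM in H1047R, 37.4 to 39.1 CPM in E545K and 43.9 to 47.9 CPM in WT, which does not check the knocked-in base. Summed markers of breast epithelium reached 26095 to 29889.6 CPM in H1047R, 22796 to 23247 CPM in E545K and 27820.5 to 28396 CPM in WT. The summed list of fibroblast markers stood at 69.5 to 85.9 CPM in H1047R, 67.0 to 70.0 CPM in E545K and 93.7 to 97.3 CPM in WT. That of endothelial markers stood at 22.0 to 23.6 CPM in H1047R, 10.4 to 12.1 CPM in E545K and 8.41 to 10.2 CPM in WT. That of leukocyte markers stood at 4.51 to 6.33 CPM in H1047R, 6.71 to 7.44 CPM in E545K and 10.9 to 11.4 CPM in WT. These sums come mostly from COL1A1 (46.8 to 71.1 CPM over all libraries), DCN (7.05 to 48.9), KDR (7.63 to 23.2) and CD68 (4.41 to 11.1), each of which was called in both knock-in lines against WT. CD68 shares 85.6% of its exon bases with other genes, so its reads cannot be told apart from theirs. PDGFRB reached 0.743 CPM and VWF 0.955 CPM, while COL1A2, COL3A1, LUM, PECAM1, CDH5, PTPRC and CD3E reached at most 0.223 CPM. The endothelial markers did not move together. Against WT, KDR rose by 1.37 in H1047R and 0.31 in E545K on the log2 scale, and VWF fell by 1.89 and 1.03. The part of these marker genes in the results was not tested. WT replicate 1 stood apart in luminal hormone-receptor genes, with TFF1 at 10.0 CPM, against 0.507 and 0.742 CPM in WT replicates 2 and 3. Leaving it out changed the call of no member in any comparison.

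All 10 members passed the filter on low counts. A gene was called when its adjusted p was under 0.05 by edgeR's quasi-likelihood test with Benjamini-Hochberg adjustment over all 26412 genes tested. In H1047R against WT, 2 members rose and 4 fell, so 6 of 10 were called, against 55.5% of all genes tested (27.4% higher, 28.1% lower). In E545K against WT, 2 rose and 3 fell, so 5 of 10 were called, against 36.6% of all genes tested (17.7% higher, 18.9% lower). A fit with only the E545K and WT libraries called 9 members, adding CCND3, CDK4, CDKN2C and CDKN2D, and 53.1% of the genes it tested. In H1047R against E545K, 2 rose and 6 fell, so 8 of 10 were called, against 53.2% of all genes tested (25.9% higher, 27.3% lower). Given these backgrounds, the number of called members is not a result about the group, and the values of each gene carry the account. The median log2 fold change of the 10 was -0.14 in H1047R against WT, -0.07 in E545K against WT and -0.16 in H1047R against E545K, beside 0.02, 0.00 and 0.02 over all genes tested. The comparisons share libraries with each other, so their values are set side by side and are not independent.

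**Figure D1:**
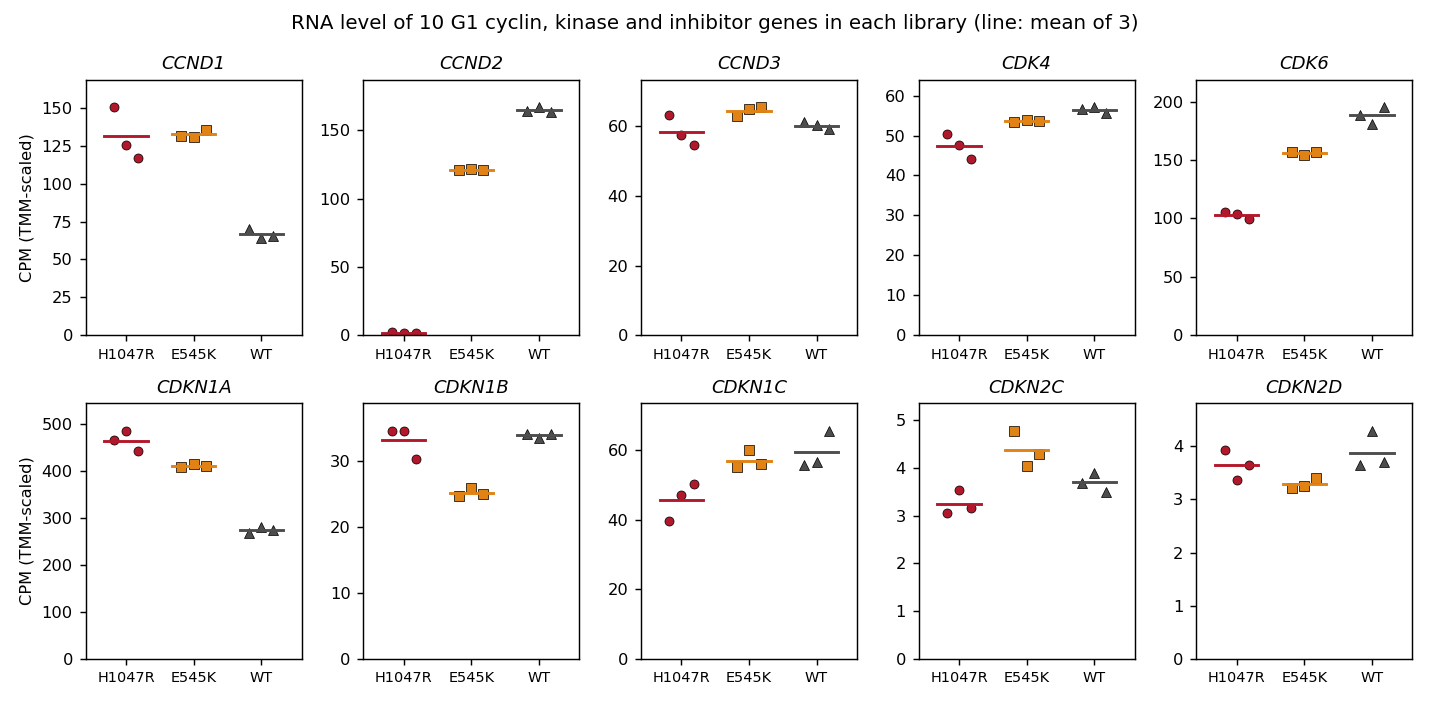
CPM (vertical axes, each from 0) of the 10 genes in each library of H1047R, E545K and WT, with a line at the mean of 3 libraries. CCND2 lies between 1.48 and 2.05 CPM in H1047R libraries, while CCND1 and CDKN1A are higher in both knock-in lines than in WT.

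**Figure D2:**
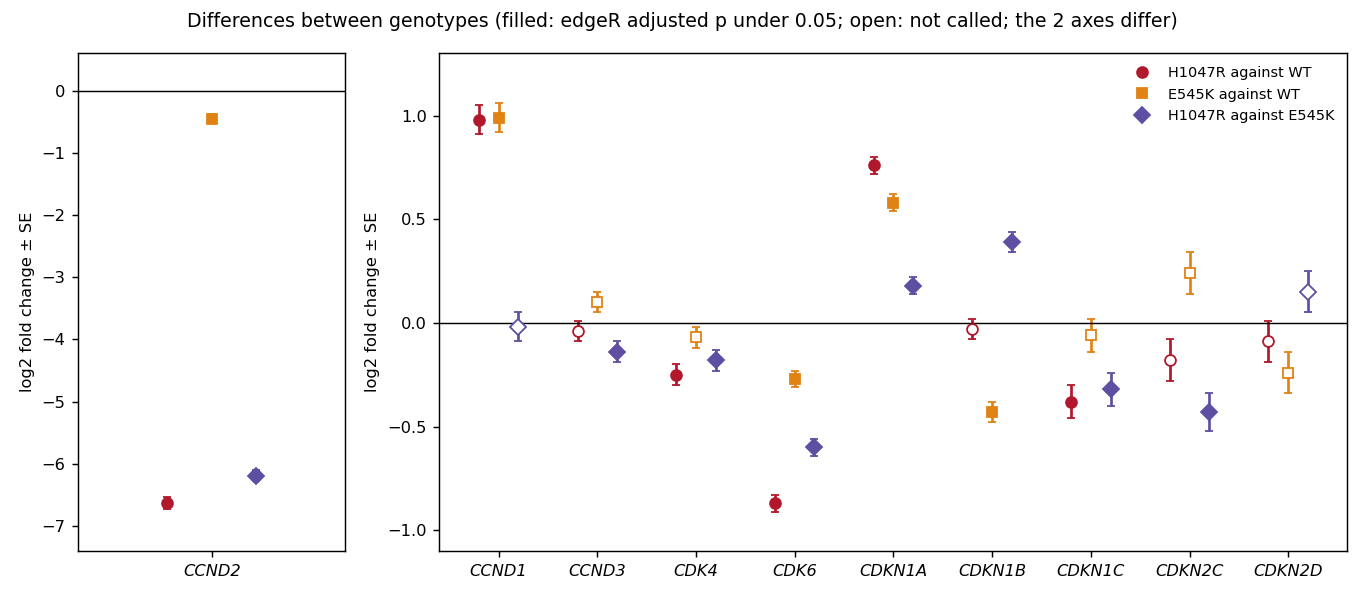
Log2 fold change ± SE (vertical axes) of each gene in the 3 comparisons, with CCND2 on an axis of its own because its range is wider. Filled points were called by edgeR and open points were not. CCND2 is at -6.63 in H1047R against WT and -0.45 in E545K against WT.

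Promoter windows are shown for members that moved in at least 1 knock-in line. RefSeq (GRCh38.p14) gave one for 7 of the 10 members, not for CCND1, CCND2 or CDKN1C. Each window covers the 250 bases before a transcript start, written without bases that fall in exons, and CDK6 has a second window with none of the 4 motifs, not printed. The CDKN1A window is chr6:36678464-36678657 (plus strand), the CDKN1B window chr12:12717118-12717367 (plus strand), the first CDK6 window chr7:92836595-92836823 (minus strand) and the CDK4 window chr12:57752448-57752560 (minus strand). Capitals mark matches on either strand to a GC box (GGGCGG, bound by SP1) or an E-box (CACGTG, bound by MYC), and no match to an E2F motif (TTTNNCGC) or a FOXO motif (TGTTTAC) was found in these 4 windows. Matches to different motifs did not overlap.
CDKN1A: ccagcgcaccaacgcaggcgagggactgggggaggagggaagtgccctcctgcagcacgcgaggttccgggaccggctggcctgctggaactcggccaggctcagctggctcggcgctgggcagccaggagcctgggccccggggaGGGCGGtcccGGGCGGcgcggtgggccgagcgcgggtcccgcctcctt
CDKN1B: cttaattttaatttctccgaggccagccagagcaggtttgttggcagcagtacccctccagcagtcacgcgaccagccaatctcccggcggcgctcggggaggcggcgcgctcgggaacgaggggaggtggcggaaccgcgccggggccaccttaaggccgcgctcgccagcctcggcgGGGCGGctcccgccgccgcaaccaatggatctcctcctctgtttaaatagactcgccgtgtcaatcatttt
CDK6: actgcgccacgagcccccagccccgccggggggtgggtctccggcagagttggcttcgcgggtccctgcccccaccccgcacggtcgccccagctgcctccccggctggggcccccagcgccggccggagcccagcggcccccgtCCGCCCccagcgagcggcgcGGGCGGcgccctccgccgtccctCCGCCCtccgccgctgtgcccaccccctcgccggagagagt
CDK4: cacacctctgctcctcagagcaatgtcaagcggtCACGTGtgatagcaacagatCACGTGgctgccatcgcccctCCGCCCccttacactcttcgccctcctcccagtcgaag
The full windows held 4 GC boxes for CDKN1A, 1 for CDKN1B, 3 for the first of CDK6 and 3 for CDK4, and 3 E-boxes for CDK4. Of 35116 RefSeq windows of this length, 42.6% held the GC box, 6.34% the E-box, 5.92% the E2F motif and 2.98% the FOXO motif. The GC box was present before CDKN1A, which rose in the knock-in lines, and in 1 of the 2 windows of CDK6, which fell. Windows of CCND3, CDKN2C and CDKN2D, not printed, held matches as well. GC boxes numbered 5, 2 and 0 in the windows of CCND3, 0, 5 and 1 in those of CDKN2C, and 2 for CDKN2D. CDKN2C had E-boxes in its first and last windows (1 each), and CDKN2D had 1 E2F match. A match describes the letters and not binding.

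Among the cyclins, CCND1 rose in both knock-in lines and CCND2 fell in both, with the fall in H1047R leaving little of its RNA. CCND1 encodes cyclin D1, the D-type cyclin most often amplified in breast cancer, and lies at chr11:69641087-69654474 (hg38, plus strand). Its level was 151, 126 and 117 CPM in H1047R, 132, 131 and 136 CPM in E545K, and 69.8, 64.4 and 65.5 CPM in WT. Every knock-in library was above every WT library, while H1047R and E545K libraries overlapped. The log2 fold change was 0.98 ± 0.07 (SE; edgeR, adjusted p = 1.87e-08) in H1047R against WT, a 1.97-fold rise, and 0.99 ± 0.07 (edgeR, adjusted p = 4.42e-08) in E545K against WT, a 1.99-fold rise. Between H1047R and E545K the difference was -0.02 ± 0.07 on the log2 scale (edgeR, adjusted p = 0.863). That value is not stable in sign, and without H1047R replicate 1, the highest library, it was -0.13 (edgeR, adjusted p = 0.0149), and with libraries scaled by their totals alone -0.16 (edgeR, adjusted p = 0.0217). CCND1 shares 10.3% of its exon bases with LTO1 on the other strand, and strand was not used in counting. LTO1 stood at 28.3 to 36.8 CPM in H1047R, 31.7 to 33.4 CPM in E545K and 21.5 to 22.6 CPM in WT, so part of these reads cannot be told apart.

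CCND2, which encodes cyclin D2, had 2.05, 1.52 and 1.48 CPM in H1047R, 121, 122 and 121 CPM in E545K, and 164, 167 and 164 CPM in WT. The 3 genotypes did not overlap, and H1047R stood far below the other two. These levels rest on 712 to 880 counts per H1047R library, 12113 to 17217 per E545K library and 15417 to 22102 per WT library, so even the lowest is well above the floor of 3 counts. The log2 fold change was -6.63 ± 0.10 in H1047R against WT (edgeR, adjusted p = 6.99e-16), which is 99.2-fold lower, and -0.45 ± 0.07 in E545K against WT (edgeR, adjusted p = 0.000196), which is 1.36-fold lower. H1047R was also 72.8-fold lower than E545K, at -6.19 ± 0.09 (edgeR, adjusted p = 2.67e-15). CCND2 lies at chr12:4273762-4305353 (hg38, plus strand), and 13.9% of its exon bases are shared with CCND2-AS1 on the other strand and with the unnamed gene ENSG00000285901 on the same strand. CCND2-AS1 had 0.0979 to 0.133 CPM in H1047R, 6.46 to 7.36 CPM in E545K and 9.08 to 10.4 CPM in WT, the same order as CCND2. The other overlapping gene kept 33.5 to 43.3 CPM in H1047R, 61.3 to 63.3 CPM in E545K and 48.1 to 48.8 CPM in WT. Reads in the shared exons were counted for both genes, so how much of the remaining H1047R signal belongs to CCND2 cannot be told apart. In a bulk sample, fewer cells with a transcript and less of it per cell cannot be told apart either.

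CCND3, the gene of cyclin D3 at chr6:41934933-42050357 (hg38, minus strand), had 63.4, 57.4 and 54.7 CPM in H1047R, 62.9, 65.1 and 65.6 CPM in E545K, and 61.3, 60.4 and 59.2 CPM in WT. H1047R libraries lay on both sides of the WT libraries, while all E545K libraries were above them by a small margin. Neither knock-in line passed the test against WT, with log2 differences of -0.04 ± 0.05 in H1047R (edgeR, adjusted p = 0.482) and 0.10 ± 0.05 in E545K (edgeR, adjusted p = 0.154). The call between H1047R and E545K, at -0.14 ± 0.05 (edgeR, adjusted p = 0.0267), was lost with no low-count filter (0.13), with protein-coding genes only (0.0803) and with only these 2 genotypes (0.0762). Its adjusted p was 0.0902 with H1047R replicate 2 left out and 0.0698 with H1047R replicate 3 left out, and 0.094 and 0.103 with E545K replicates 2 and 3 left out in turn. Without H1047R replicate 1 the difference from WT was called in H1047R (-0.10, adjusted p = 0.0287) and in E545K (adjusted p = 0.0323), and without H1047R replicate 3 in E545K as well (adjusted p = 0.0443). In E545K it was also called with upper-quartile factors (0.0365), library totals (0.000567), the stricter filter (0.0235), protein-coding genes only (0.0407) and only the 2 genotypes (0.00171), and in H1047R with library totals (0.0413).

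To compare the 3 cyclins with each other, CPM was divided by the length of each gene's exons in kilobases. On that scale their summed level was 37.5 ± 4.40 CPM per kb in H1047R, 55.5 ± 0.685 in E545K and 47.2 ± 0.681 in WT (SD, n = 3), and the libraries of the 3 genotypes did not overlap. CCND1 made up 72.4% ± 1.03 of the sum in H1047R, 49.5% ± 0.490 in E545K and 29.2% ± 0.906 in WT. CCND2 made up 0.623% ± 0.0451 in H1047R, 30.4% ± 0.431 in E545K and 48.8% ± 0.873 in WT. The share of CCND3 was 27.0% ± 1.07 in H1047R, 20.0% ± 0.277 in E545K and 22.0% ± 0.121 in WT. CCND1 led in both knock-in lines and CCND2 in WT. These shares are descriptions and carry no test.

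**Figure D3:**
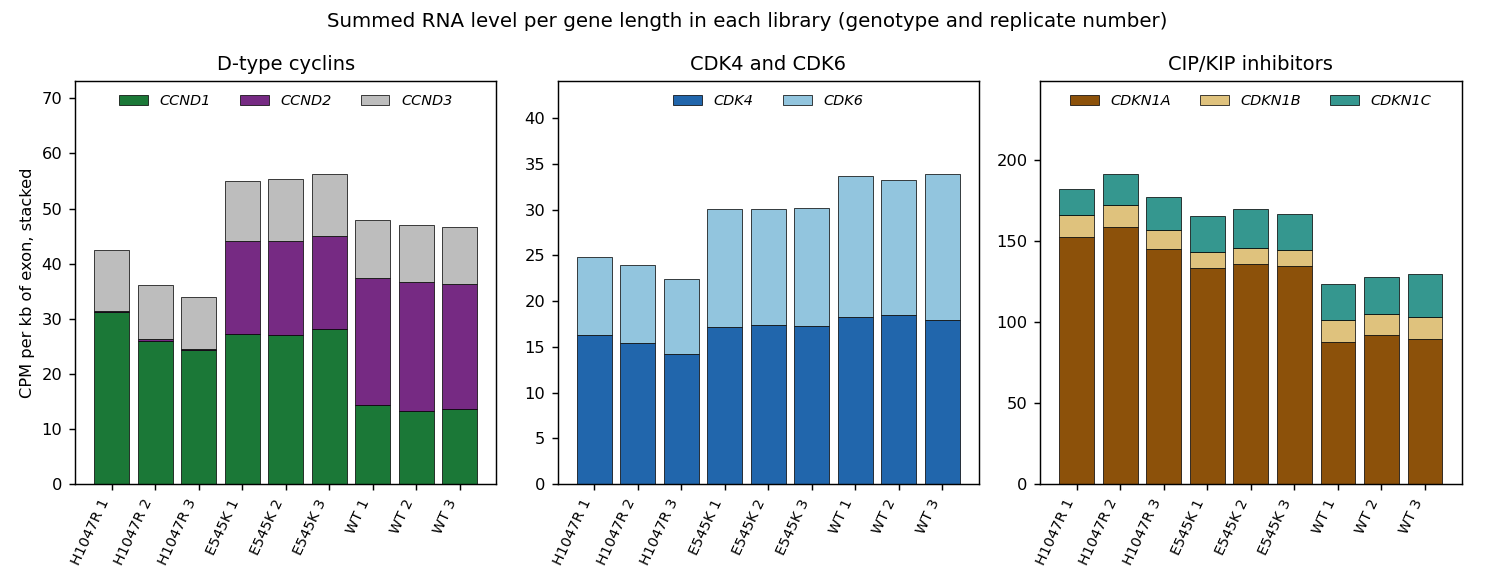
Level per length (CPM per kb of exon, stacked from 0) of the D-type cyclins, the 2 kinases and the CIP/KIP inhibitors in each of the 9 libraries. CCND1 takes 71.6% to 73.6% of the cyclin bar in H1047R, 49.0% to 50.0% in E545K and 28.3% to 30.2% in WT, and CDKN1A is the main segment among the inhibitors in every library.

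The partner kinases were lower in H1047R than in either other line. CDK6, at chr7:92604921-92836594 (hg38, minus strand), had 106, 104 and 99.7 CPM in H1047R, 157, 155 and 157 CPM in E545K, and 189, 181 and 195 CPM in WT. The genotypes did not overlap, with E545K between H1047R and WT. The log2 fold change was -0.87 ± 0.04 in H1047R against WT (edgeR, adjusted p = 1.2e-10) and -0.27 ± 0.04 in E545K against WT (edgeR, adjusted p = 8.07e-05). The difference between H1047R and E545K, at -0.60 ± 0.04, passed the test too (edgeR, adjusted p = 1.06e-08).

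CDK4, whose window holds the E-boxes shown, lies at chr12:57747727-57756013 (hg38, minus strand) and had 50.3, 47.7 and 44.1 CPM in H1047R, 53.3, 53.9 and 53.6 CPM in E545K, and 56.6, 57.1 and 55.5 CPM in WT. All 3 genotypes were again apart, in the same order, but by smaller steps. It fell in H1047R against WT by 0.25 ± 0.05 on the log2 scale (edgeR, adjusted p = 0.000284) and against E545K by 0.18 ± 0.05 (edgeR, adjusted p = 0.00463), while E545K against WT was at -0.07 ± 0.05 (edgeR, adjusted p = 0.250). CDK4 shares 44.2% of its exon bases with TSPAN31 on the other strand, whose level was 38.1 to 43.8 CPM in H1047R, 44.9 to 46.6 CPM in E545K and 47.1 to 48.9 CPM in WT. The 2 genes moved in the same order and their shared reads cannot be told apart, so the CDK4 difference is uncertain to that extent. Per length, CDK4 and CDK6 together reached 23.7 ± 1.25 CPM per kb in H1047R, 30.1 ± 0.0729 in E545K and 33.6 ± 0.324 in WT. CDK4 was 64.5% ± 0.854 of that sum in H1047R, 57.6% ± 0.360 in E545K and 54.3% ± 1.28 in WT.

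Among the CIP/KIP inhibitors, CDKN1A rose in both knock-in lines, CDKN1B fell in E545K and CDKN1C fell in H1047R. CDKN1A encodes p21, which halts CDK2 complexes, and lies at chr6:36676460-36687339 (hg38, plus strand). It had 465, 485 and 442 CPM in H1047R, 407, 414 and 410.4 CPM in E545K, and 268, 281 and 274 CPM in WT. Both knock-in lines were above WT in every library, and H1047R was above E545K. Its log2 fold change was 0.76 ± 0.04 in H1047R against WT (edgeR, adjusted p = 6.73e-10) and 0.58 ± 0.04 in E545K against WT (edgeR, adjusted p = 3.62e-08). The smaller rise of H1047R over E545K, 0.18 ± 0.04 (edgeR, adjusted p = 0.00199), was lost when libraries were scaled by their totals alone (0.04, adjusted p = 0.313).

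CDKN1B encodes p27, an inhibitor that FOXO factors activate, and lies at chr12:12715058-12722369 (hg38, plus strand). It had 34.5, 34.4 and 30.2 CPM in H1047R, 24.6, 25.9 and 24.9 CPM in E545K, and 34.0, 33.5 and 34.1 CPM in WT. E545K libraries stood below all others, and H1047R and WT libraries overlapped. The log2 fold change was -0.03 ± 0.05 in H1047R against WT (edgeR, adjusted p = 0.604) and -0.43 ± 0.05 in E545K against WT (edgeR, adjusted p = 1.6e-05). The knock-in lines differed from each other, with H1047R higher by 0.39 ± 0.05 (edgeR, adjusted p = 1.65e-05).

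CDKN1C, the gene of p57, an imprinted inhibitor, lies at chr11:2883213-2885773 (hg38, minus strand). It had 39.5, 46.9 and 50.2 CPM in H1047R, 55.0, 60.0 and 55.8 CPM in E545K, and 55.7, 56.6 and 65.5 CPM in WT. H1047R libraries were below all others and had a wide spread, and E545K and WT libraries overlapped. It fell in H1047R against WT by 0.38 ± 0.08 (edgeR, adjusted p = 0.000791) and against E545K by 0.32 ± 0.08 (edgeR, adjusted p = 0.003), with E545K against WT at -0.06 ± 0.08 (edgeR, adjusted p = 0.631). Summed per length, the CIP/KIP genes reached 183 ± 7.32 CPM per kb in H1047R, 167 ± 2.43 in E545K and 127 ± 3.11 in WT. CDKN1A gave 82.9% ± 0.976 of this in H1047R, 80.4% ± 0.526 in E545K and 70.8% ± 1.33 in WT. The ratio of the CIP/KIP sum to the D-type cyclin sum was 4.93 ± 0.557 in H1047R, 3.02 ± 0.0537 in E545K and 2.69 ± 0.104 in WT.

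The INK4 members had the lowest summed level of the 4 classes, at 3.50 ± 0.113 CPM per kb in H1047R, 3.64 ± 0.115 in E545K and 3.80 ± 0.296 in WT. CDKN2C, the gene of p18 at chr1:50960745-50974634 (hg38, plus strand), had 3.06, 3.54 and 3.16 CPM in H1047R, 4.78, 4.04 and 4.29 CPM in E545K, and 3.69, 3.90 and 3.50 CPM in WT. E545K libraries were the highest, by a margin that did not pass the test against WT (0.24 ± 0.10; edgeR, adjusted p = 0.0691). It passed without H1047R replicate 1 (adjusted p = 0.0458), with library totals only (0.0172), with the stricter filter (0.0487) and with only the 2 genotypes (0.025). H1047R was lower than E545K by 0.43 ± 0.09 (edgeR, adjusted p = 0.00151) and was at -0.18 ± 0.10 against WT (edgeR, adjusted p = 0.122). CDKN2D, the gene of p19 at chr19:10566460-10569059 (hg38, minus strand), had 3.93, 3.36 and 3.64 CPM in H1047R, 3.21, 3.26 and 3.41 CPM in E545K, and 3.64, 4.29 and 3.70 CPM in WT. E545K libraries lay below all WT libraries, and H1047R libraries overlapped both. In the fit of all libraries it passed no test, with log2 differences of -0.09 ± 0.10 in H1047R against WT, -0.24 ± 0.10 in E545K against WT and 0.15 ± 0.10 in H1047R against E545K (edgeR, adjusted p = 0.457, 0.0821 and 0.220). With only the E545K and WT libraries it was called, at -0.23 (edgeR, adjusted p = 0.0445).

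CDKN2A and CDKN2B, the INK4 genes on chromosome 9 that MCF-10A is known to have lost, were near 0 throughout. Neither had a count in the H1047R libraries, where a count of 0 allows up to 0.00520 to 0.00863 CPM for counting error alone. CDKN2A had 0.0421, 0.0185 and 0.00997 CPM in E545K and 0.0446, 0.0846 and 0.0212 CPM in WT, and CDKN2B had 0.0140, 0.0185 and 0.0598 CPM in E545K and 0.0594, 0.0423 and 0.0424 CPM in WT. Both missed the filter on low counts, and so did their neighbour MTAP, which encodes a methionine-salvage enzyme and had 0.0115 to 0.0403 CPM in H1047R, 0.0280 to 0.0740 CPM in E545K and 0.0297 to 0.0530 CPM in WT. DMRTA1, a transcription-factor gene beyond them, was the one gene of this locus list tested, and it fell by 1.68 ± 0.18 in H1047R against WT (edgeR, adjusted p = 1.72e-06).

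Ranked per length, CDKN1A was the highest of the 10 in each line, at 152 CPM per kb in H1047R, 135 in E545K and 89.9 in WT. CCND1 ranked 2 of 10 in H1047R (27.2 CPM per kb) and E545K (27.5), and 6 of 10 in WT (13.8). CCND2 ranked 10 of 10 in H1047R (0.235 CPM per kb), 5 of 10 in E545K (16.9) and 3 of 10 in WT (23.0). Neighbours in rank had separate library ranges apart from CDKN1C and CDK4 in H1047R and CDKN1C and CCND2 in WT.

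The counts of the lists that follow stand against a background of 55.5% of all genes called in H1047R against WT (27.4% higher, 28.1% lower), 36.6% in E545K against WT (17.7% higher, 18.9% lower) and 53.2% in H1047R against E545K (25.9% higher, 27.3% lower). Downstream of the D-type cyclins, S-phase genes that E2F factors drive fell in H1047R and were mixed in E545K. Of 16 genes, 1 rose and 14 fell in H1047R against WT (median log2 fold change -0.85, beside 0.02 for all genes), 7 rose and 2 fell in E545K against WT (median 0.13, beside 0.00), and all 16 fell in H1047R against E545K (median -1.09, beside 0.02). TK1, thymidine kinase, fell by 2.90 ± 0.07 in H1047R against WT (edgeR, adjusted p = 1.1e-13) and by 0.26 ± 0.07 in E545K against WT (edgeR, adjusted p = 0.00602). RRM2, a ribonucleotide reductase subunit, fell by 2.51 ± 0.16 in H1047R (edgeR, adjusted p = 4.95e-09) and rose by 0.73 ± 0.15 in E545K (edgeR, adjusted p = 0.00151), each against WT. The replication licensing factor CDT1 fell in both, by 2.17 ± 0.07 in H1047R and 0.66 ± 0.07 in E545K. PCNA, the sliding clamp of DNA polymerase, rose in both, by 0.38 ± 0.06 in H1047R and 0.77 ± 0.06 in E545K, and CDC6, which loads the replicative helicase, rose by 0.85 ± 0.11 in E545K. Of the 6 genes of the cyclin E and cyclin A step, 1 rose and 4 fell in H1047R against WT (median -0.45), 4 rose and 1 fell in E545K against WT (median 0.44), and all 6 fell in H1047R against E545K (median -0.83). CCNA1, cyclin A1, had 1.23, 0.913 and 0.911 CPM in H1047R, 2.77, 3.61 and 3.55 CPM in E545K, and 0.780, 0.444 and 0.445 CPM in WT, and rose in both knock-in lines, by 0.84 ± 0.22 in H1047R (edgeR, adjusted p = 0.00439) and 2.54 ± 0.22 in E545K (edgeR, adjusted p = 3.66e-07). CCNA2, cyclin A2, had 4.37, 3.68 and 3.09 CPM in H1047R, 16.4, 16.9 and 16.8 CPM in E545K, and 12.8, 11.7 and 12.5 CPM in WT. CDK2 itself fell in both lines, by 0.69 ± 0.06 in H1047R and by 0.21 ± 0.06 in E545K. The second call was lost without E545K replicate 2 (-0.18, edgeR adjusted p = 0.0653) and with library totals only (-0.12, edgeR adjusted p = 0.074).

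**Figure D4:**
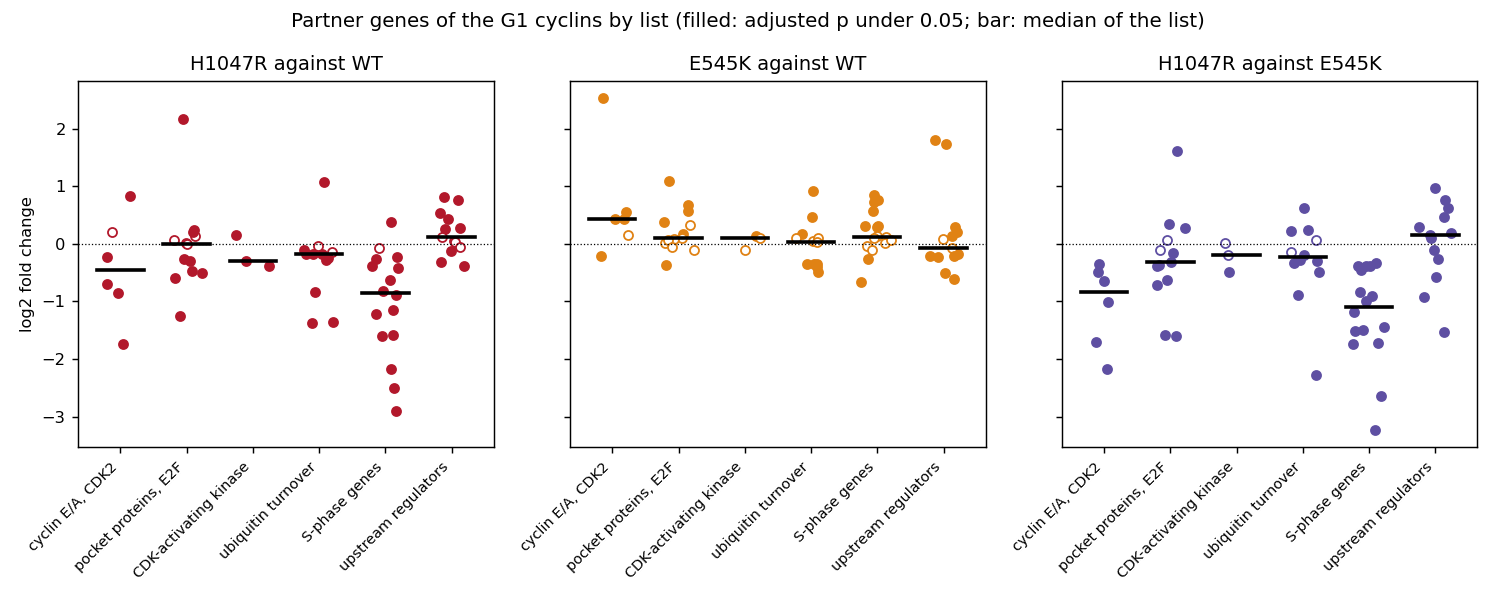
Log2 fold change (vertical axis, shared) of each tested gene in 6 lists, for H1047R against WT, E545K against WT and H1047R against E545K. Filled points were called by edgeR, open points were not, and the bar is the list median. The S-phase median is -0.85 in H1047R against WT and 0.13 in E545K against WT.

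Of 13 pocket protein and E2F genes, 3 rose and 6 fell in H1047R against WT (median 0.00), 5 rose and 1 fell in E545K against WT (median 0.11), and 3 rose and 8 fell in H1047R against E545K (median -0.31). The called shares, 9, 6 and 11 of 13, stand beside 55.5%, 36.6% and 53.2% of all genes. RB1, the gene of the retinoblastoma protein and named here after its values were seen, was at 0.02 ± 0.05 in H1047R against WT (edgeR, adjusted p = 0.762) and rose by 0.17 ± 0.05 in E545K against WT (edgeR, adjusted p = 0.0114). E2F2, an activator of S-phase genes, went against the S-phase list with 6.23, 5.30 and 4.47 CPM in H1047R, 1.82, 1.74 and 1.68 CPM in E545K, and 1.34, 1.05 and 1.13 CPM in WT. Its rise was 2.17 ± 0.14 in H1047R against WT (edgeR, adjusted p = 3.9e-09). The repressors E2F7 and E2F8 fell in H1047R against WT, by 0.50 ± 0.09 and 1.26 ± 0.14, and E2F7 rose by 1.10 ± 0.09 in E545K against WT.

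For the kinase that activates CDK4 and CDK6, the trimer of CDK7, CCNH and MNAT1, differences stayed small. In H1047R against WT, MNAT1 fell by 0.39 ± 0.06 (edgeR, adjusted p = 7.38e-05), CDK7 fell by 0.29 ± 0.09 (edgeR, adjusted p = 0.0127) and CCNH rose by 0.16 ± 0.04 (edgeR, adjusted p = 0.00705). CCNH was the 1 of 3 called in E545K against WT, at 0.14 ± 0.05 (edgeR, adjusted p = 0.0211). This call was lost on leaving out any WT library (edgeR, adjusted p = 0.0612, 0.0896 and 0.0639) or E545K replicate 2 (0.0539) or 3 (0.118). It was also lost with no low-count filter (0.112).

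Genes of ubiquitin-driven turnover, which sets how long cyclins and inhibitors last, included 1 rise and 9 falls among 12 in H1047R against WT, 3 rises and 5 falls in E545K against WT, and 3 rises and 7 falls in H1047R against E545K. The medians were -0.18, 0.04 and -0.24, beside 0.02, 0.00 and 0.02 over all genes, and 10, 8 and 10 of 12 were called, beside 55.5%, 36.6% and 53.2% of all genes. SKP2, the F-box protein that marks p27 for degradation, had 23.3, 22.9 and 19.6 CPM in H1047R, 40.9, 40.2 and 39.7 CPM in E545K, and 56.8, 56.3 and 56.8 CPM in WT. It fell by 1.37 ± 0.06 in H1047R (edgeR, adjusted p = 3.49e-11) and by 0.49 ± 0.06 in E545K (edgeR, adjusted p = 6.69e-06), each against WT. FBXW7, the F-box protein that targets cyclin E, ran the other way with 72.7, 75.7 and 71.1 CPM in H1047R, 47.1, 48.4 and 47.8 CPM in E545K, and 34.3, 35.4 and 34.0 CPM in WT. CUL4B, a cullin scaffold, fell by 0.84 ± 0.04 in H1047R and by 0.35 ± 0.04 in E545K. DTL, which directs that ligase to p21 and CDT1, fell by 1.36 ± 0.25 in H1047R and rose by 0.92 ± 0.24 in E545K.

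Of 13 transcription factors known to act on the members, 6 rose and 3 fell in H1047R against WT (median 0.12), 5 rose and 6 fell in E545K against WT (median -0.07), and 8 rose and 5 fell in H1047R against E545K (median 0.15). The medians of all genes were 0.02, 0.00 and 0.02, and 9, 11 and 13 of 13 were called, beside 55.5%, 36.6% and 53.2% of all genes. FOXO3, an activator of CDKN1B, had 254, 288 and 277 CPM in H1047R, 139.8, 138 and 141 CPM in E545K, and 160.5, 160.5 and 164 CPM in WT. It rose by 0.76 ± 0.04 in H1047R (edgeR, adjusted p = 1.77e-09) and fell by 0.21 ± 0.04 in E545K (edgeR, adjusted p = 0.00165), each against WT, and FOXO4 did the same, at 0.26 ± 0.07 in H1047R and -0.51 ± 0.07 in E545K. KLF4, which activates CDKN1A, rose in both lines, by 0.82 ± 0.06 in H1047R and 1.74 ± 0.06 in E545K. HES1, a Notch-driven repressor, rose by 1.80 ± 0.05 in E545K and by 0.27 ± 0.05 in H1047R. SMAD3 fell by 0.32 ± 0.04 in H1047R and by 0.61 ± 0.04 in E545K, and MYC fell by 0.38 ± 0.05 in H1047R and rose by 0.21 ± 0.05 in E545K.

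The genes whose pattern lay nearest to each cyclin were found by the root-mean-square difference of log2 CPM, centred per gene, over the 9 libraries among 9958 other protein-coding genes of at least 10 CPM in 1 genotype. For CCND1 they were EHHADH, a peroxisomal enzyme gene (difference 0.0477), PGBD5 (0.0848) and INPP4B, a phosphoinositide phosphatase gene (0.0978). EHHADH averaged 17.5 ± 1.81 CPM in H1047R, 18.7 ± 0.173 CPM in E545K and 8.86 ± 0.541 CPM in WT. For CCND2 no gene of this set came close, the nearest being IL1B (1.24), IGFBP6 (1.29) and RYR1 (1.32). CCND2-AS1, which shares exon bases with CCND2, was outside the set and its difference was not measured. It averaged 0.110 ± 0.0193 CPM in H1047R, 6.91 ± 0.450 CPM in E545K and 9.87 ± 0.699 CPM in WT. IL1B, the interleukin-1 beta gene, averaged 1.14 ± 0.0853 CPM in H1047R, 10.7 ± 1.02 CPM in E545K and 29.3 ± 1.32 CPM in WT, a smaller spread between genotypes than that of CCND2. For CCND3 the nearest were SRP68 (0.0225), ENSG00000275740 (0.0242) and STARD7 (0.0251). These are descriptions over libraries that share genotype and table.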

How the data were processed

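The values analysed are read counts per gene, which the authors deposited as 2 tables. The counter was featureCounts 2.0.0 on GENCODE 32 and hg38, per the file headers. Per the same headers, exons were counted without strand, each mate was counted by itself and a read over several genes was counted for each, so overlapping and antisense genes share reads. STAR, SAMtools 1.5, Trim Galore 0.4.0, cutadapt and FastQC are listed in the submitters' processing notes. Settings for these are not given in the sources used here. Raw counts, not separately normalized values, were joined across the tables, and 0 count columns were left unused. Of 60609 identifiers, 60295 matched a GENCODE 44 name and 314 did not.

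Counts were tested with edgeR 4.0.16 in R 4.3.3, on genes that passed filterByExpr at default settings. TMM factors scaled the libraries, all 9 entered 1 quasi-likelihood model with genotype as its term, and p-values were adjusted by Benjamini-Hochberg over 26412 genes, with a call at an adjusted p under 0.05. The procedure was tested on simulated data that had the same spread in every library. That test does not cover the unequal spreads of the genotypes here. The SE is the log2 fold change divided by the square root of the F statistic and is approximate. Spreads of levels are SD of 3 libraries. The pooled biological coefficient of variation was 0.118, between the wider spread of H1047R and the narrower spreads of E545K and WT. With 0 counts seen, up to 3 counts are allowed, or 0.0210 to 0.0318 CPM on the TMM-scaled total in E545K and WT libraries, for counting error only, since reads carry no molecular identifiers. Level per length divides CPM by the summed exon length in the deposited tables. Same-numbered libraries did not deviate together (correlations -0.0348 to 0.0227), so the numbers were not taken as pairs. Alternatives were DESeq2 1.42.0, other scaling, other filters, 2 genotypes alone, thinning, a replicate block and leaving out each library.

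The members and all lists were chosen with earlier results of these data known. Named genes are all 10 members, PIK3CA, CDKN2A, CDKN2B, the called genes of each list with the largest log2 fold change (up to 3 in the direction with more calls and 1 in the other) and the 3 genes nearest in pattern to each cyclin. MTAP, RB1, the overlapping genes and the marker genes were named after their values were seen. A gene that the rule names is not reported here.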

Additional observations from a re-analysis of the deposited data

How the results depend on the processing

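Under 19 alternatives, all 6 calls of members in H1047R against WT and all 5 in E545K against WT were kept, and 6 of 8 in H1047R against E545K, the exceptions being CCND3 and CDKN1A. Of 570 alternative values of members, 528 kept direction and side of the threshold, 8 lost the call, 17 gained one and 17 changed sign. Of 1311 values of other named genes, 1289 kept both and 22 lost the call. Most of these 22 belonged to PIK3CA in H1047R against WT, at -0.11 ± 0.04 in the main fit (edgeR, adjusted p = 0.0438). Its adjusted p was 0.288 with upper-quartile factors (edgeR) and 0.0713 with DESeq2. In E545K against WT PIK3CA was at -0.28 ± 0.04 (edgeR, adjusted p = 0.000171). It shares 35.2% of its exon bases with KCNMB3 on the other strand. With only the E545K and WT libraries in the fit, 9 members were called in E545K against WT, beside 12585 genes against 9663 in the fit of all libraries. The cause of the added calls was not tested. Values that changed sign were near 0 and not called. In H1047R against WT these were CCND3 at 0.01 (upper-quartile factors) and 0.02 (protein-coding genes only), with a range of -0.10 to 0.01 on leaving out a library, and CDKN1B at 0.02 (upper-quartile factors), 0.00 (stricter low-count filter) and 0.03 (protein-coding genes only), with a range of -0.06 to 0.03. In E545K against WT, CDK4 was at 0.02 and CDKN1C at 0.04 with library totals only, and CDKN1C ranged from -0.10 to 0.02 on leaving out a library. In H1047R against E545K, CCND1 was at 0.03 with upper-quartile factors, 0.03 with no low-count filter, 0.01 with the stricter filter and 0.05 with protein-coding genes only, and ranged from -0.13 to 0.06. The cause was not tested. Library totals alone moved the median of all genes to 0.10 in E545K against WT and to -0.12 in H1047R against E545K, and DESeq2, on its own gene set, put the last at -0.13. Without division by gene length, CCND1 made up 68.5% of D-type cyclin CPM in H1047R, 41.7% in E545K and 22.8% in WT, CCND2 0.875% in H1047R, 38.0% in E545K and 56.5% in WT, and CCND3 30.6% in H1047R and 20.7% in WT. With the replicate number as a block, 6, 5 and 8 members were called in H1047R against WT, E545K against WT and H1047R against E545K, so pairing changed no count, and not every library correlated best with its own number. CDKN2A and CDKN2B stood at or near the floor. Both had 0 counts in each H1047R library, the deepest of the set. In E545K and WT libraries CDKN2A had 1 to 8 counts and CDKN2B 2 to 8.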

Other observations

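The chromosomal neighbours of the members were looked at as values only, and only protein-coding genes that were tested were taken. Of all genes tested, 55.5% were called in H1047R against WT, 36.6% in E545K against WT and 53.2% in H1047R against E545K. The medians of all genes were 0.02, 0.00 and 0.02. A fit of protein-coding genes only called 69.9%, 53.2% and 68.2% of the genes it tested. Within 1 Mb of CCND2 there were 13 other such genes. In H1047R against WT their log2 fold changes ran from -2.31 to 1.51 with a median of -0.33. Of these 13, 3 rose and 8 fell, and none reached the -6.63 of CCND2. The antisense gene CCND2-AS1, which overlaps CCND2, is outside this set. It averaged 0.110 CPM in H1047R, 6.91 CPM in E545K and 9.87 CPM in WT. In E545K against WT the same 13 had a median of 0.23, with 7 that rose and 1 that fell. In H1047R against E545K their median was -0.53 (1 rose, 7 fell), beside -6.19 for CCND2. Within 1 Mb of CCND1, 14 genes had a median of -0.20 in H1047R against WT (4 rose, 8 fell) and -0.08 in E545K against WT (2 rose, 5 fell), while CCND1 rose in both. Around CDK6, 16 genes had a median of 0.16 in H1047R against WT (6 rose, 5 fell), beside -0.87 for CDK6. Around CDKN1A, 28 genes had a median of -0.23 in H1047R against WT (9 rose, 11 fell), beside 0.76 for CDKN1A. In the same comparison, neighbours of CDKN1C and CDK4 had medians with the sign of the member. Around CDKN1C, 26 genes had a median of -0.53 (7 rose, 13 fell), beside -0.38. Around CDK4, 42 genes had a median of -0.14 (9 rose, 18 fell), beside -0.25. For the members not called there, the neighbour median was -0.16 for CCND3, 0.20 for CDKN1B, -0.02 for CDKN2C and -0.10 for CDKN2D. Whether copy number differs between the lines was not tested.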
